A study of Ovis aries with 7 samples.

Results

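The 5 genes followed here take up, exchange or recycle glutamate, and were measured by single-nucleus RNA sequencing of sheep striatum: *SLC1A1*, *SLC1A2*, *SLC1A3*, *SLC7A11* and *GLUL*. They were chosen by name, and all 5 were found once each among the 26479 features of the count matrices, under the Ensembl sheep identifiers ENSOARG00020007364 (*SLC1A1*), ENSOARG00020014083 (*SLC1A2*), ENSOARG00020013733 (*SLC1A3*), ENSOARG00020015377 (*SLC7A11*) and ENSOARG00020003226 (*GLUL*). The libraries came from 6 *OVT73* sheep and 6 wild-type controls, all aged 5 years. *OVT73* is a sheep line that carries a full-length human *HTT* cDNA with an expanded glutamine tract under the human gene's own promoter, and serves as a model of Huntington's disease. Nuclei of 12 sheep were sequenced as 7 droplet libraries, 3 of *OVT73* (each a pool of 2 sheep) and 4 of control (2 of them pools of 2 sheep and 2 of 1 sheep). Barcodes were not assigned to single sheep here, so the library was the unit of replication, and p-values measure the spread between these libraries.

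Glutamate released at synapses is cleared by sodium-driven transporters of the SLC1 family, mostly on astrocytes. *SLC1A2* encodes GLT-1 and *SLC1A3* encodes GLAST, the main astrocyte transporters, while *SLC1A1* encodes EAAC1, a transporter that neurons use and that also carries cysteine. Inside astrocytes *GLUL*, glutamine synthetase, turns glutamate into glutamine, which is passed back to neurons to make glutamate again. *SLC7A11* encodes the light chain of the cystine/glutamate exchanger, which releases glutamate in return for the cystine needed to make glutathione. The striatum receives dense glutamatergic input from the cortex and thalamus, and its main neurons, the medium spiny neurons (MSNs), are GABAergic.

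The libraries held 20887378 to 70473426 UMIs (unique molecular identifiers, each a counted transcript), and 3102 to 8340 nuclei per library were kept, 32599 in all. *OVT73* libraries were deeper per nucleus, with medians of 2221 to 2562 UMIs against 1860 to 2170 in controls. Any pair of libraries shared 1 to 18 barcodes, at most 0.435% of the smaller library. The human *HTT* feature that was added to the reference had 27 to 342 UMIs in *OVT73* libraries and 1 to 6 in controls. Clustering without the 5 genes gave 21 clusters, of which 16 took a name from marker genes, and those named formed 13 classes with 30972 nuclei. The 2111 astrocyte-like nuclei (124 to 696 per library) had 12 of 13 detected astrocyte markers raised, with a summed marker level of 14852 to 21227 CPM (UMI counts scaled by the library's total in that class) against 218 to 284 CPM in oligodendrocyte-like nuclei. The other classes used here held 15161 oligodendrocyte-like, 2994 oligodendrocyte precursor cell (OPC)-like, 2782 microglia-like, 297 macrophage-like, 2610 D1 MSN-like and 2270 D2 MSN-like nuclei, with smaller interneuron-, neuroblast- and excitatory neuron-like groups. Of the 254 excitatory neuron-like nuclei, 169 came from *OVT73* library 1.

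The genes divided the striatum between them. Among the 13 named classes, *SLC1A2*, *SLC1A3* and *SLC7A11* were highest in astrocyte-like nuclei and *GLUL* in oligodendrocyte-like nuclei. Among the same classes, *SLC1A1* was highest in OPC-like nuclei as CPM and in D1 MSN-like nuclei as UMIs per nucleus. The classes were cut from the same nuclei, and although left out of the clustering *SLC1A2* and *SLC7A11* ranked within the top 10 by fold in astrocyte-like nuclei, so these levels are a description and carry no test. Levels are given within a gene across classes, since no transcript lengths were used to compare one gene with another.

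**Figure D1:**
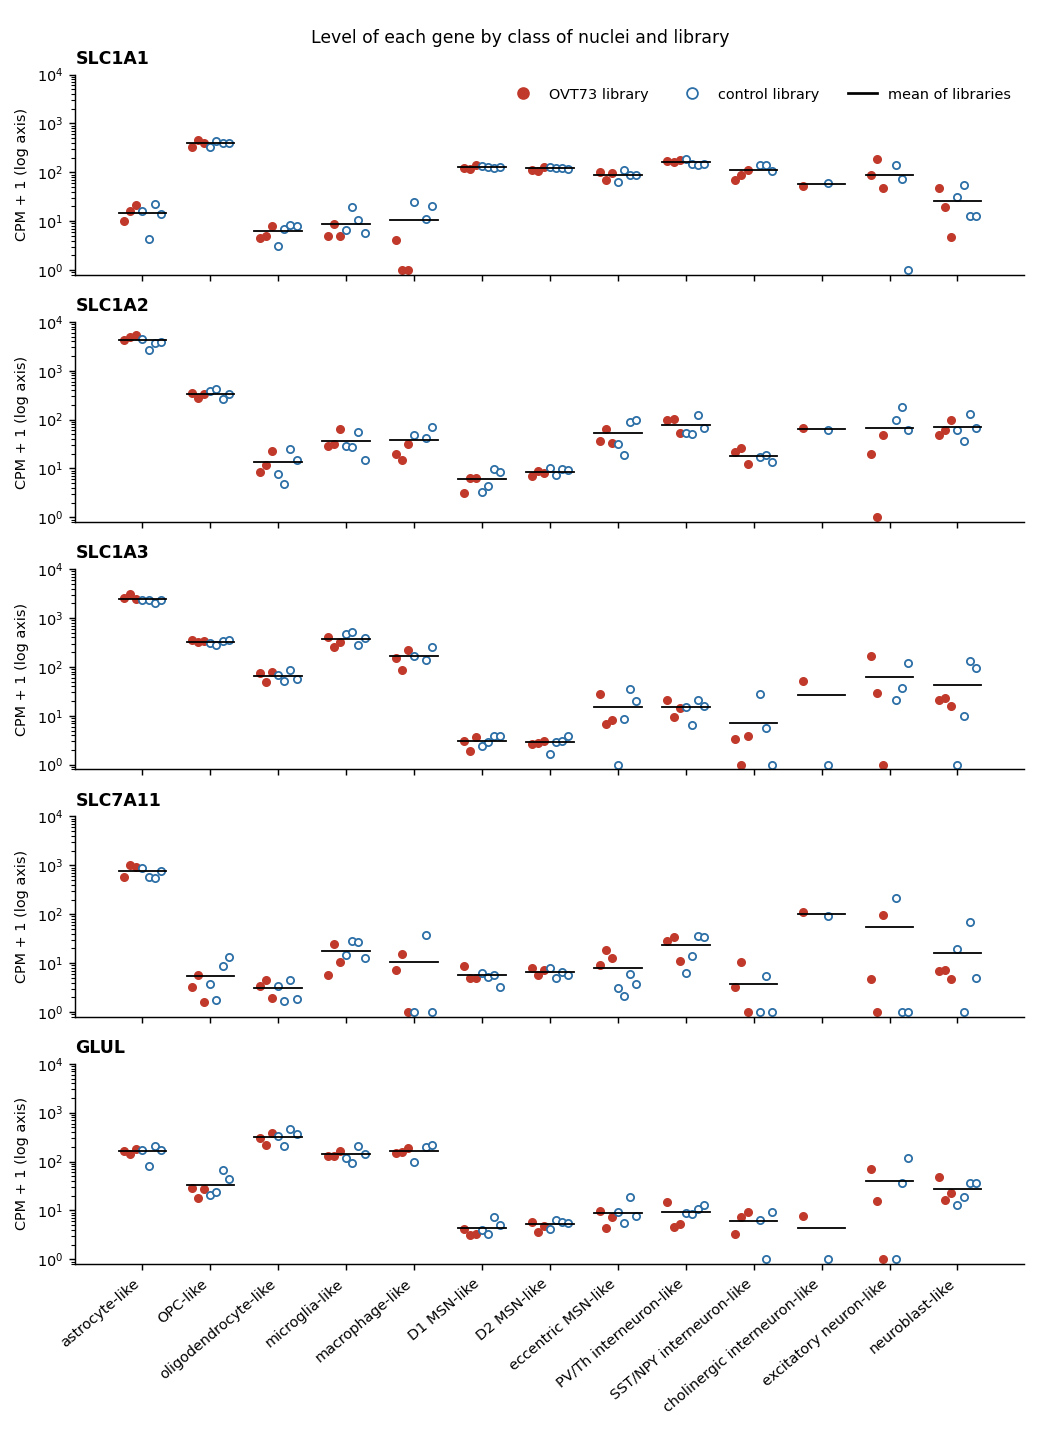
Level of each gene in 13 classes of nuclei, as CPM + 1 on a log axis. Each point is a library with at least 10 nuclei of the class (filled red, *OVT73*; open blue, control) and the line is the mean. *SLC1A2*, *SLC1A3* and *SLC7A11* peak in astrocyte-like nuclei, *GLUL* in oligodendrocyte-like nuclei and *SLC1A1* in OPC-like nuclei.

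*SLC1A2* had a mean level of 4157 CPM ± 824 (SD, n = 7 libraries) in astrocyte-like nuclei. Its levels there were 4300, 4796 and 5279 CPM in the *OVT73* libraries and 4377, 2713, 3702 and 3930 CPM in the control libraries. Every library had more *SLC1A2* in astrocyte-like than in oligodendrocyte-like, OPC-like, microglia-like or pooled neuron-like nuclei (D1, D2 and eccentric MSN-like and PV/Th interneuron-like). The mean was 12.4 times that in OPC-like nuclei, the class that came next (336 CPM ± 55.6), and OPC-like nuclei exceeded PV/Th interneuron-like nuclei (77.7 CPM ± 29.5) in 7 of 7 libraries. Below PV/Th interneuron-like nuclei the ranges of neighbours in the order overlapped. Oligodendrocyte-like nuclei had 12.6 CPM ± 7.82, which put the astrocyte-like level 329.8-fold higher (154- to 702-fold within libraries), and D1 MSN-like nuclei had the lowest mean, 4.97 CPM ± 2.54.

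*SLC1A3* reached 2461 CPM ± 348 (n = 7) in astrocyte-like nuclei, with 2569, 3145 and 2493 CPM in *OVT73* and 2346, 2337, 2012 and 2329 CPM in control libraries. All *OVT73* libraries lay above all controls, a difference taken up with its test further on. Unlike *SLC1A2*, it was also plain in microglia-like nuclei, at 376 CPM ± 96.5, a level whose order against OPC-like nuclei (327 CPM ± 25.2) was not settled, since microglia-like nuclei were higher in 4 of 7 libraries. Macrophage-like nuclei followed with 169 CPM ± 60.2 over the 6 libraries with at least 10 such nuclei, and oligodendrocyte-like nuclei had 65.7 CPM ± 14.3. D1 and D2 MSN-like nuclei were at 2.10 CPM ± 0.770 and 1.84 CPM ± 0.666, and all neuron-like nuclei pooled had 3.65 CPM against 2461 in astrocyte-like nuclei.

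In droplet data, RNA set free from broken cells can give low counts of a gene in cells that do not make it. Genes from a single source would then keep a fixed ratio in every class. The ratio in free RNA itself was not measured and need not equal that of any class. The part of free RNA in the counts below was not tested. *SLC1A3* UMIs were 0.579 times *SLC1A2* UMIs in astrocyte-like nuclei (0.472 to 0.861 in single libraries), but 10.4 times in microglia-like nuclei (4.90 to 28.2) and 5.79 times in oligodendrocyte-like nuclei (3.49 to 13.2). The library ranges of both did not overlap that of astrocyte-like nuclei. In OPC-like nuclei the ratio was 0.986 (0.656 to 1.25), overlapping the astrocyte-like range, while *SLC7A11* UMIs were 0.0121 times *SLC1A2* UMIs against 0.169 in astrocyte-like nuclei (library ranges 0.00175 to 0.0382 and 0.135 to 0.212).

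Counted by nucleus, 73.7% of astrocyte-like nuclei had UMIs of both *SLC1A2* and *SLC1A3*, 18.1% of *SLC1A3* without *SLC1A2*, 3.36% of *SLC1A2* without *SLC1A3* and 4.83% of neither. In OPC-like nuclei 39.2% had both. In microglia-like nuclei 34.7% had *SLC1A3* without *SLC1A2* and 1.62% had both. Depth differs between classes, so each nucleus was also thinned to 500 UMIs, which left out no nucleus. At that depth *SLC1A2* was counted in 58.8% of astrocyte-like nuclei (48.4 to 68.6% in single libraries), 15.3% of OPC-like, 1.73% of microglia-like, 0.693% of oligodendrocyte-like and 0.230% of D1 MSN-like nuclei. Whether the last of these is free RNA was not tested. *SLC1A3* was counted in 62.0%, 14.3%, 15.8%, 2.99% and 0.0766% of the same classes. Before thinning the shares with *SLC1A2* were 77.0% in astrocyte-like nuclei (median depth 2677 UMIs) and 8.43% in D1 MSN-like nuclei (22423 UMIs).

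*SLC7A11* had 756 CPM ± 194 (n = 7) in astrocyte-like nuclei, with 582, 1019 and 943 CPM in *OVT73* and 864, 567, 544 and 773 CPM in control libraries. Both groups held low and high libraries. The next class, cholinergic interneuron-like nuclei, reached at least 10 nuclei in 2 libraries only, at 90.1 and 109 CPM. Oligodendrocyte-like and OPC-like nuclei had 2.03 CPM ± 1.22 and 4.46 CPM ± 4.34, so that within glia *SLC7A11* was more restricted to astrocyte-like nuclei than *SLC1A3*, whose astrocyte-like level was 37.5 times the oligodendrocyte-like level against 372 times for *SLC7A11*. After thinning, 26.1% of astrocyte-like, 0.112% of oligodendrocyte-like and 0.307% of D1 MSN-like nuclei had an *SLC7A11* UMI.

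*GLUL* departed from the astrocyte pattern. Its mean was 325 CPM ± 89.8 in oligodendrocyte-like nuclei and 159.9 CPM ± 40.0 in astrocyte-like nuclei, and oligodendrocyte-like nuclei were higher in 7 of 7 libraries, with the astrocyte-like level 0.493 times theirs (0.380 to 0.664 in single libraries). Oligodendrocyte-like levels were 304, 217 and 381 CPM in *OVT73* and 336, 207, 456 and 371 CPM in control libraries. Astrocyte-like levels were 165, 144 and 183 CPM in *OVT73* and 173, 78.7, 203 and 172 CPM in control libraries. The order below oligodendrocyte-like nuclei was not settled: macrophage-like nuclei (166 CPM ± 42.8) were above astrocyte-like nuclei in 3 of 6 libraries, and astrocyte-like nuclei above microglia-like nuclei (140.0 CPM ± 35.3) in 5 of 7. OPC-like nuclei had 31.9 CPM ± 17.1 and D1 MSN-like nuclei 3.30 CPM ± 1.47. Thinned to 500 UMIs, 13.7% of oligodendrocyte-like, 7.06% of astrocyte-like, 6.18% of microglia-like, 1.27% of OPC-like and 0.0766% of D1 MSN-like nuclei had a *GLUL* UMI.

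Oligodendrocyte-like nuclei are the largest class, so *GLUL* was also set against *MOG*, a myelin gene. *GLUL* UMIs were 0.335 times *MOG* UMIs in oligodendrocyte-like nuclei (0.196 to 0.470 in single libraries), 1.96 times in astrocyte-like nuclei (0.780 to 10.2) and 5.17 times in microglia-like nuclei (1.27 to 29.8). In astrocyte-like and microglia-like nuclei every library lay above the oligodendrocyte-like range. D1 MSN-like nuclei were at 0.159 (0.0894 to 0.333), which overlapped it. The part of free RNA in these *GLUL* counts was not tested. Among the 4 oligodendrocyte-like clusters, *GLUL* was highest in the 2096 nuclei led by *TOX3*, *MMD2* and *MMRN1* (395 CPM ± 101), in 6 of 7 libraries. The other clusters had means of 284, 307 and 346 CPM with SDs of 79.7 to 99.02.

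The libraries that were high in *GLUL* in oligodendrocyte-like nuclei were also high in other glia. Control library 3 had the highest *GLUL* level in oligodendrocyte-like, astrocyte-like, microglia-like and OPC-like nuclei (456, 203, 205 and 66.2 CPM), and control library 2 the lowest in the first 3 of these. Across the 7 libraries, the astrocyte-like level followed the oligodendrocyte-like level with Pearson's r = 0.87 (exact permutation p = 0.000794, adjusted 0.00238 over 3 relations) and Spearman's rho = 0.96 (exact permutation p = 0.00278, adjusted 0.00833). Without control libraries 2 and 3, the farthest from the median, r was 0.97. For microglia-like nuclei r was 0.87 (exact permutation p = 0.00754, adjusted 0.0113) and rho 0.89 (exact permutation p = 0.0123, adjusted 0.0185), and r was 0.61 without the same 2 libraries. For OPC-like nuclei r was 0.79 (exact permutation p = 0.0206, adjusted 0.0206), rho was 0.68 (exact permutation p = 0.110, adjusted 0.110) and r without those libraries was 0.65. Both levels of each point come from the same library and so share its tissue, handling and free RNA, whose part in the relation was not tested. The relation is given for *GLUL* only, with no share of all genes beside it. Control library 3 was lowest in astrocyte-like *SLC1A3* (2012 CPM) but highest in oligodendrocyte-like *SLC1A3* (86.5 CPM). For *SLC1A2*, control library 2 was lowest in both classes (2713 and 3.87 CPM).

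**Figure D2:**
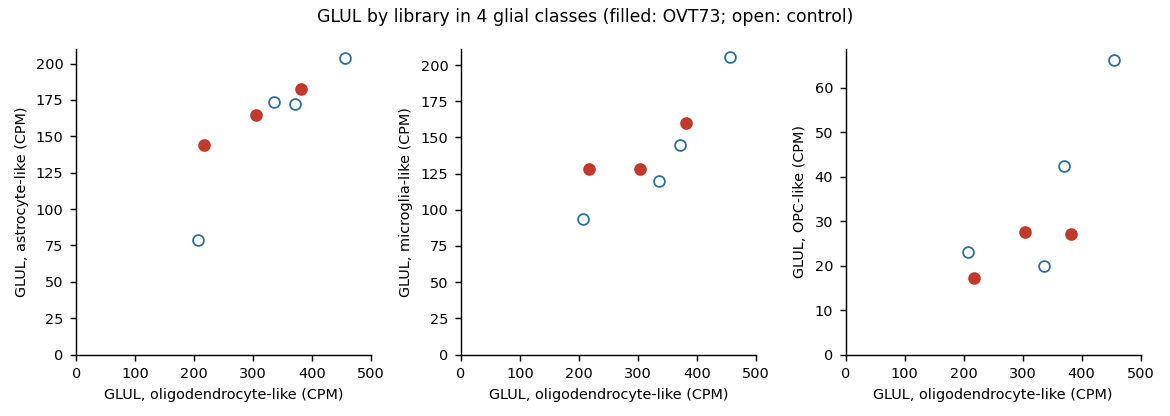
*GLUL* level (CPM) in astrocyte-, microglia- and OPC-like nuclei against that in oligodendrocyte-like nuclei, 1 point per library (filled, *OVT73*; open, control). In each panel the highest point is control library 3, and the genotypes are interleaved.

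*SLC1A1* was the neuronal and precursor member. As CPM it was highest in OPC-like nuclei, at 391 CPM ± 50.7, 2.44 times PV/Th interneuron-like nuclei (160.2 CPM ± 18.1), and the order held in 7 of 7 libraries. D1 MSN-like nuclei had 126 CPM ± 8.77 and D2 MSN-like nuclei 119 CPM ± 7.68, with D1 the higher in 6 of 7 libraries although the ranges overlapped. Eccentric MSN-like nuclei had 88.1 CPM ± 17.1. The glial classes other than OPC-like nuclei were low, at 13.9 CPM ± 6.28 in astrocyte-like, 7.76 CPM ± 5.29 in microglia-like and 5.26 CPM ± 2.09 in oligodendrocyte-like nuclei.

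The order of *SLC1A1* turned with the scale. MSN-like nuclei hold far more RNA (median 22423 UMIs in D1 MSN-like against 3626 in OPC-like nuclei), and per nucleus D1 MSN-like nuclei had 3.27 *SLC1A1* UMIs ± 0.591, PV/Th interneuron-like nuclei 2.73 ± 0.410 and OPC-like nuclei 1.56 ± 0.245 (n = 7 libraries each). Thinned to 500 UMIs, 17.5% of OPC-like and 6.05% of D1 MSN-like nuclei had an *SLC1A1* UMI, whereas without thinning these were 69.1% and 87.6%. Oligodendrocyte-like nuclei, lowest in *SLC1A1* as CPM, had 0.284% after thinning, and astrocyte-like nuclei 0.758%.

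These levels and the make-up of the tissue together set where each transcript was counted. Astrocyte-like nuclei were 6.14% of nuclei (mean of 7 libraries) and held 69.7% ± 11.8 of all *SLC1A2* UMIs, 57.8% ± 10.3 of *SLC1A3* UMIs and 69.2% ± 10.0 of *SLC7A11* UMIs. OPC-like nuclei added 13.9% ± 10.2 of *SLC1A2* and 16.4% ± 5.66 of *SLC1A3*. By genotype these astrocyte-like shares were 79.4% in *OVT73* and 62.4% in control for *SLC1A2*, 68.1% and 50.1% for *SLC1A3* (exact permutation p = 0.0571 each) and 76.0% and 64.1% for *SLC7A11* (exact permutation p = 0.171). Of *GLUL* UMIs, 74.8% ± 5.97 lay in oligodendrocyte-like nuclei (47.0% of nuclei) and 8.09% ± 3.92 in astrocyte-like nuclei. The oligodendrocyte-like share of *GLUL* was 70.0% in *OVT73* and 78.5% in control, and the astrocyte-like share 11.9% and 5.23% (exact permutation p = 0.0571 each). *SLC1A1* UMIs lay mainly in D1 MSN-like (35.6% ± 4.89), D2 MSN-like (28.0% ± 3.44) and OPC-like nuclei (20.3% ± 3.73).

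**Figure D3:**
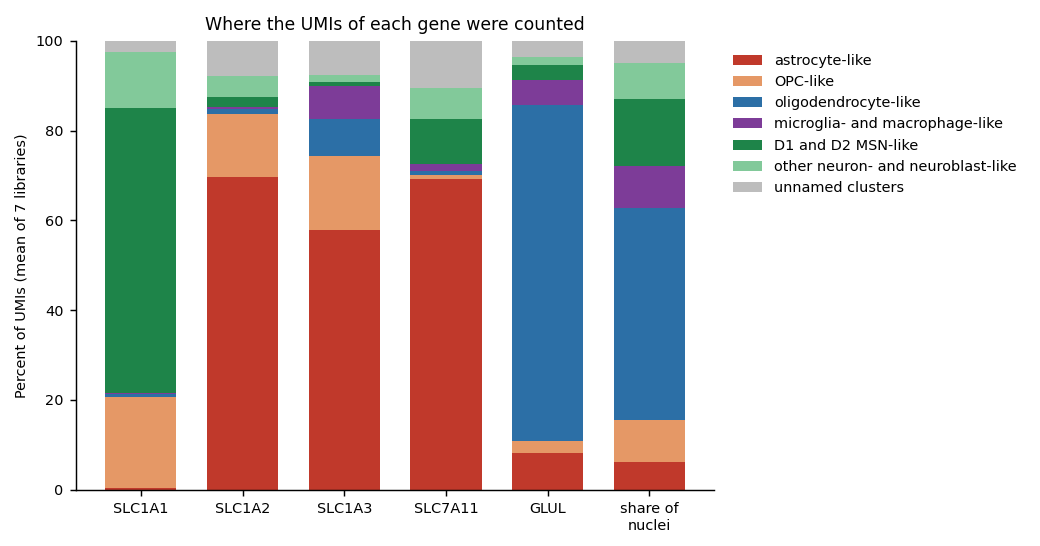
Share of the UMIs of each gene counted in each group of nuclei, as the mean percent of 7 libraries, with the share of all nuclei at the right. Astrocyte-like nuclei hold 69.7% of *SLC1A2* and 8.09% of *GLUL* UMIs, and oligodendrocyte-like nuclei 74.8% of *GLUL* UMIs.

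Astrocyte-like nuclei were not uniform in the uptake genes. At a finer clustering, also made without the 5 genes and examined after the data were seen, they fell into sub-clusters A (897 nuclei, led by *CABLES1* and *ADCY1*), B (813 nuclei, led by *FOS*, *TTR* and *DKK2*) and C (398 nuclei, led by *SCGN* and *DLL3*). The 5 genes were left out when these leading genes were picked. *SLC1A2* was 6222 CPM ± 612 in A, 1988 CPM ± 616 in B and 357 CPM ± 52.8 in C (n = 7 libraries each), in that order in 7 of 7 libraries, so A held 17.5 times the level of C. *SLC1A3* was 2875 CPM ± 310.4, 2262 CPM ± 514 and 1248 CPM ± 460.5 in A, B and C, a ratio of 2.30 between A and C. The A level exceeded the B level in 7 of 7 libraries, and the B level exceeded the C level in 6. *SLC7A11* was alike in A and B (853 CPM ± 166 and 850.0 CPM ± 322) and lower in C (143 CPM ± 55.0). *GLUL* was 200.03 CPM ± 35.97 in A, 124 CPM ± 56.7 in B and 62.4 CPM ± 31.2 in C.

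Sub-cluster C was the shallowest (median 1758 UMIs against 3977 in A and 2119 in B) and weak in other astrocyte genes. *AQP4*, the astrocyte water channel, had 59.3 CPM ± 19.5 in C against 366 ± 61.1 in A and 349.9 ± 110.3 in B, and *GFAP*, an astrocyte intermediate filament, 155 CPM ± 88.6 against 607 ± 177 and 964 ± 389. The OPC marker *PDGFRA* had 112 CPM ± 96.5 in C and 4.17 CPM ± 3.34 in A. The sub-clusters were not given other cell type names.

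**Figure D4:**
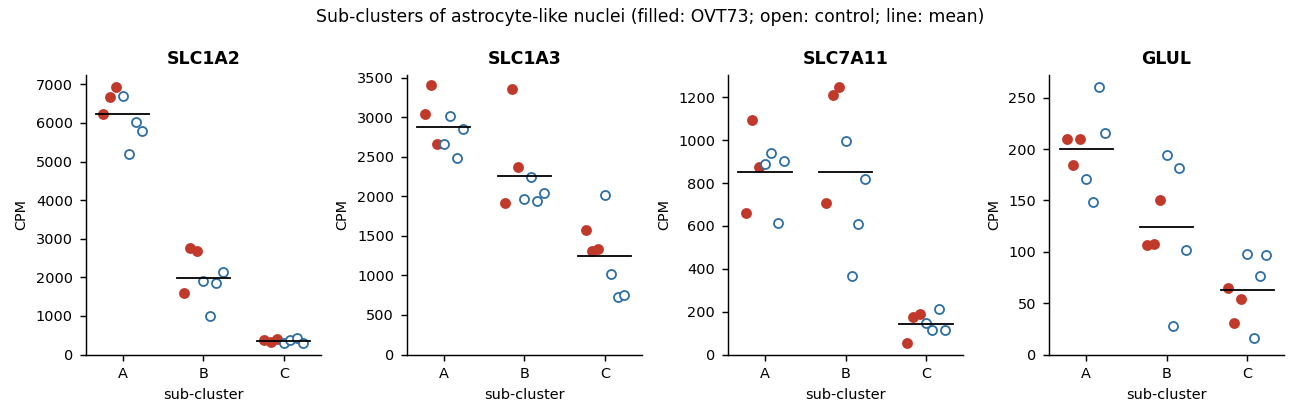
Level (CPM) of 4 genes in astrocyte-like sub-clusters A, B and C, 1 point per library (filled, *OVT73*; open, control), with the mean as a line. *SLC1A2* is 17.5 times and *SLC1A3* 2.30 times higher in A than in C, while *SLC7A11* is level between A and B.

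Genes were ranked by how closely their mean log2(CPM + 1) over the 13 classes followed each member, among 10080 genes with a symbol and at least 10 CPM in a class. The values describe 13 classes that share libraries and carry no test. *SLC1A2* was followed most closely by *NUMBL* (r = 0.95) and also by *HEY2* (r = 0.90), and *SLC1A3* by *APOE* (r = 0.96), the lipid carrier, *LFNG* (r = 0.93) and *PPP6R3* (r = 0.93). *SLC7A11* was followed by *POLR2B*, *WDR73* and *BLVRB* (r = 0.90 each). *GLUL* was followed by *NFKBIA*, *NR4A2* and *POT1* (r = 0.97 each), and *SLC1A1* by *KCNMA1* (r = 0.96), *GRIA4* (r = 0.96), an AMPA receptor subunit, and *SLC16A7* (r = 0.96). Between members, *SLC1A2* and *SLC1A3* had r = 0.79, *GLUL* and *SLC1A3* r = 0.81, and *GLUL* and *SLC1A1* r = -0.77.

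The genes around uptake were taken from fixed lists with 33 genes in the files, of which some of the highest of each list are given. *AQP4*, itself among the markers by which the class was named, was 320.0 CPM ± 59.7 in astrocyte-like nuclei. Of the enzymes that use glutamate, *GLUD1*, glutamate dehydrogenase, was highest in astrocyte-like nuclei (239 CPM ± 48.7), with 86.2 CPM ± 11.7 in oligodendrocyte-like nuclei, which came next. Of the glutamine transporters, *SLC38A1* was highest in PV/Th interneuron-like nuclei (211 CPM ± 51.6) and *SLC38A2* in microglia-like nuclei (108 CPM ± 34.8). Next came microglia-like nuclei for *SLC38A1* (206 CPM ± 36.4) and macrophage-like nuclei for *SLC38A2* (92.6 CPM ± 10.2), so neither order is settled.

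*SLC3A2*, the heavy chain that pairs with the *SLC7A11* product, was spread over classes, with 40.4 CPM ± 7.57 in astrocyte-like nuclei and 55.7 CPM ± 6.20 in cholinergic interneuron-like nuclei (2 libraries), and *NFE2L2*, a regulator of antioxidant genes, was 215 CPM ± 28.1 in microglia-like and 173 CPM ± 25.0 in astrocyte-like nuclei. Of the remaining SLC1 genes, *SLC1A4*, a neutral amino acid transporter, was 95.7 CPM ± 10.4 in astrocyte-like nuclei, and *SLC1A6*, EAAT4, was 67.5 CPM ± 30.8 in neuroblast-like nuclei. The vesicular transporter *SLC17A6* was found mainly in excitatory neuron-like nuclei (176 CPM ± 264 over 6 libraries) and *SLC17A8* in cholinergic interneuron-like nuclei (20.1 CPM ± 14.0 in 2 libraries). Both are among the markers by which these classes were named, so their place there is no separate result. The mitochondrial carriers *SLC25A12* and *SLC25A13* were highest in neuroblast-like (293 CPM ± 22.3) and microglia-like nuclei (410 CPM ± 148). For *SLC25A13* oligodendrocyte-like nuclei came next at 377 CPM ± 65.1, so that order is not settled.

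The second comparison asked whether the genes differed between *OVT73* and control in each class. In astrocyte-like nuclei all 5 had a log2 fold change above 0, from 0.03 to 0.41 (that of *SLC1A1*, the lowest, was -0.0021 without scaling of library sizes), and none passed the test. UMIs were summed per library and class, and edgeR's quasi-likelihood test was fitted on all genes with Benjamini-Hochberg adjustment. Over the 9 classes with at least 10 nuclei in every library, 0 of 36 tests of the 5 genes had an adjusted p under 0.05 (lowest adjusted p = 0.764). An unadjusted p under 0.05 was found in 2 of them, *SLC1A2* and *SLC1A3* in astrocyte-like nuclei, and DESeq2 called 0. In astrocyte-like nuclei edgeR called 0 of 8352 genes (0% of those tested), with 373 at an unadjusted p under 0.05. At that unadjusted level were 495 of 12383 genes in D1 MSN-like and 548 of 11919 in D2 MSN-like nuclei. They were 534 of 7370 in eccentric MSN-like, 190 of 9359 in PV/Th interneuron-like and 148 of 4546 in neuroblast-like nuclei. In glia they were 274 of 6546 in microglia-like, 556 of 10518 in oligodendrocyte-like and 615 of 9193 in OPC-like nuclei. Whether 2 of 36 member tests exceeds these shares was not tested. Across the 9 classes edgeR called 1 gene, in eccentric MSN-like nuclei (1 of 7370, 0.0136%). A comparison of 3 with 4 libraries has 35 splits, so the two-sided exact permutation p cannot go below 0.0571.

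*SLC1A2* in astrocyte-like nuclei, as CPM scaled by TMM (trimmed mean of M values) factors, was 4428, 5087 and 5419 in *OVT73* libraries and 4444, 2791, 3764 and 3960 in controls. The groups overlapped by a single step, control library 1 lying 1 place above *OVT73* library 1. The log2 fold change was 0.41 (SE 0.163, edgeR adjusted p = 1.00, exact permutation p = 0.114). *SLC1A3* was 2646, 3335 and 2559 in *OVT73* and 2382, 2403, 2046 and 2347 in controls. The groups did not overlap, with *OVT73* library 2 well above the others, and the log2 fold change was 0.31 (SE 0.141, edgeR adjusted p = 1.00, exact permutation p = 0.0571). It was the only member without overlap in any of the 36 tests, and in astrocyte-like nuclei 250 of 8352 genes (2.99%) likewise had every *OVT73* above every control library.

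The other members overlapped between genotypes. *SLC7A11* was 599, 1081 and 968 in *OVT73* and 878, 583, 553 and 778 in controls, with *OVT73* library 1 among the low controls and a log2 fold change of 0.34 (SE 0.224, edgeR adjusted p = 1.00, exact permutation p = 0.229). *GLUL* had a log2 fold change of 0.06 (SE 0.239, edgeR adjusted p = 1.00), with 153 to 187 in *OVT73* inside the control range of 80.9 to 207. *SLC1A1* had one of 0.03 (SE 0.466, edgeR adjusted p = 1.00) at means of 15.6 and 13.3. After thinning to 500 UMIs, the share of astrocyte-like nuclei with an *SLC1A2* UMI was 61.7% ± 6.86 in *OVT73* and 55.8% ± 6.12 in control (exact permutation p = 0.343), and with an *SLC1A3* UMI 63.5% ± 1.88 and 59.1% ± 1.90 (exact permutation p = 0.114).

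**Figure D5:**
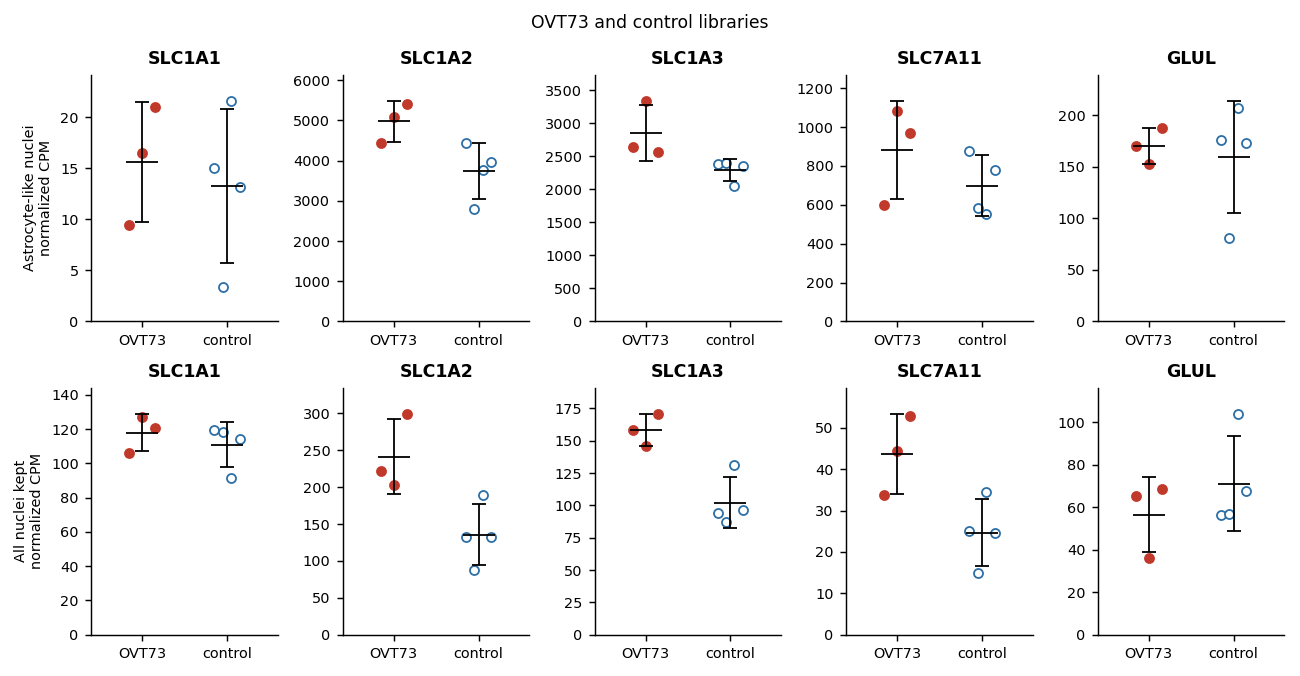
TMM-scaled CPM of each gene in astrocyte-like nuclei (top) and in the sum of all nuclei kept (bottom), 1 point per library (filled, *OVT73*; open, control), with mean and SD. *SLC1A3* does not overlap between genotypes in either row, *SLC1A2* only in the bottom row, and no gene passed the edgeR test.

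Some other properties of the astrocyte-like nuclei did not overlap between genotypes, while most of those examined did. For 3 against 4 libraries, a measure without a genotype difference fails to overlap, in either direction, with a chance of 0.0571. Of all genes tested in astrocyte-like nuclei, 2.99% lay wholly above and 2.41% wholly below the controls in *OVT73*. Whether the properties without overlap exceed chance was not tested. Sub-cluster B, lower in *SLC1A2*, was 32.9, 35.2 and 40.6% of astrocyte-like nuclei in *OVT73* and 43.0, 47.6, 44.7 and 43.3% in control libraries, with no overlap (exact permutation p = 0.0571, the lowest possible). The shares of A (means 45.1% in *OVT73* and 37.6% in control, exact permutation p = 0.171) and C (18.7% and 17.4%, exact permutation p = 0.743) overlapped. Within sub-clusters the *SLC1A2* log2 fold change was 0.18 (SE 0.127) in A, 0.45 (SE 0.274) in B and 0.00 (SE 0.260) in C, and that of *SLC1A3* 0.16 (SE 0.145), 0.34 (SE 0.213) and 0.31 (SE 0.323). With the 3 sub-clusters held at fixed shares, the log2 ratio of mean CPM went from 0.38 to 0.20 for *SLC1A2* and from 0.28 to 0.20 for *SLC1A3*, and the *SLC1A3* groups then overlapped. *SLC1A2*, though left out of the clustering, was among the leading genes of A against all other nuclei. Sub-cluster shares and *SLC1A2* level are therefore not separate measures. The part of the shares in the genotype difference was not tested. Summed OPC markers in astrocyte-like nuclei were 1506 to 1814 CPM in *OVT73* and 1902 to 1987 in control libraries, with 10 of 10 markers detected, and summed PV/Th interneuron markers 8.22 to 10.6 and 16.8 to 45.9. The PV/Th interneuron sums rest on few UMIs, since a library held 305149 to 2631875 UMIs in astrocyte-like nuclei. Oligodendrocyte markers (465 to 4281 in control, 1345 to 1540 in *OVT73*) and all the other marker lists, among them microglia and astrocyte markers, overlapped between genotypes. The part of these markers in the differences was not tested.

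In the 8 other classes, 14 of 31 tests had a log2 fold change above 0 and 17 below, from -0.80 to 0.50, and the groups overlapped in each of the 31, where 1.62 to 4.44% of all genes in a class and direction did not. *GLUL* in oligodendrocyte-like nuclei, where most of it lies, had 309 ± 73.3 in *OVT73* and 335 ± 90.3 in control (TMM-scaled CPM, log2 fold change -0.12, SE 0.241, edgeR adjusted p = 0.964). *SLC1A1* had log2 fold changes of 0.05 (SE 0.105) in D1 MSN-like, 0.03 (SE 0.094) in D2 MSN-like and 0.11 (SE 0.143) in OPC-like nuclei. *SLC1A3* had 0.18 (SE 0.105) in OPC-like and -0.32 (SE 0.206) in microglia-like nuclei, and *SLC1A2* -0.07 (SE 0.157) in OPC-like nuclei.

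Whether the genotype difference was particular to astrocyte-like nuclei was examined as the difference in log2(CPM + 1) between astrocyte-like and oligodendrocyte-like nuclei of the same library. For *SLC1A2* this was 8.51 ± 0.605 in *OVT73* and 8.39 ± 0.941 in control (exact permutation p = 0.914, adjusted 0.914 over 3 genes). For *SLC1A3* it was 5.36 ± 0.532 and 5.12 ± 0.433 (exact permutation p = 0.514, adjusted 0.771). For *GLUL* it was -0.84 ± 0.238 and -1.15 ± 0.180 (exact permutation p = 0.114, adjusted 0.343). With 3 against 4 libraries the exact permutation p cannot go below 0.0571, so no gene could reach 0.05 here. The test therefore cannot decide whether the difference was particular to astrocyte-like nuclei.

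In the sum of all nuclei kept in a library, the astrocyte genes differed more between genotypes than within astrocyte-like nuclei. In such sums, fewer cells of a type and less RNA per cell cannot be told apart. *SLC1A2* was 221, 203 and 299 TMM-scaled CPM in *OVT73* and 133, 88.3, 190 and 132 in controls. The groups did not overlap, with control library 3 nearest to *OVT73*, and the log2 fold change was 0.83 (SE 0.229, edgeR adjusted p = 0.831, exact permutation p = 0.0571). *SLC1A3* was 158, 146 and 170 in *OVT73* and 94.0, 86.8, 131 and 96.2 in controls, again without overlap, with a log2 fold change of 0.63 (SE 0.144, edgeR adjusted p = 0.831, exact permutation p = 0.0571). *SLC7A11* was 33.7, 44.3 and 52.9 against 25.0, 14.8, 34.4 and 24.6, where control library 3 lay above *OVT73* library 1, with 0.82 (SE 0.250, edgeR adjusted p = 0.831, exact permutation p = 0.114). *GLUL* had -0.33 (SE 0.265, edgeR adjusted p = 0.839) and *SLC1A1* 0.09 (SE 0.121, edgeR adjusted p = 0.890).

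edgeR called 0 of 16061 genes in these sums (0%), with 865 at an unadjusted p under 0.05. Among the 865 were 3 of the 5 members, *SLC1A2*, *SLC1A3* and *SLC7A11*. DESeq2 called 14 genes, none of them a member. For 493 of 16061 genes (3.07%) every *OVT73* library was above every control, as for 2 of the 5 members. Without TMM scaling both genes overlapped, control library 3 lying above *OVT73* library 2 (213 against 185 CPM for *SLC1A2* and 147 against 133 CPM for *SLC1A3*), and the median log2 fold change of all genes moved from -0.03 to -0.15. Astrocyte-like nuclei made up 8.35, 6.56 and 8.92% of nuclei in *OVT73* and 5.32, 3.17, 5.62 and 5.03% in control libraries, with no overlap (exact permutation p = 0.0571), and oligodendrocyte-like nuclei 41.6% and 51.2% on average (exact permutation p = 0.0571). With every class held at a fixed share of UMIs, the log2 ratio of mean CPM went from 0.71 to 0.30 for *SLC1A2* and from 0.51 to 0.20 for *SLC1A3*, and neither gene overlapped between genotypes at fixed shares (201.6 CPM ± 15.6 against 163 ± 11.3, and 138 ± 7.35 against 120.5 ± 4.50, exact permutation p = 0.0571 each, the lowest possible). The share of all genes without overlap at fixed shares was not computed, so these 2 cannot be set against it. The part of the class shares in the genotype difference was not tested.

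Of the 33 other genes of glutamate handling, 20 were tested in astrocyte-like nuclei by edgeR with 0 at an adjusted p under 0.05, 0 at an unadjusted p under 0.05 and 0 by DESeq2. Their log2 fold changes were above 0 for 11 and below for 9, with a median of 0.04, against -0.02 over all genes tested. *GCLM*, the modifier subunit of the enzyme that makes the glutathione precursor, was the only list gene without overlap there, at 20.4, 20.3 and 16.8 in *OVT73* and 25.7, 33.7, 26.6 and 22.6 in control libraries (log2 fold change -0.47, SE 0.269, edgeR adjusted p = 1.00), where 2.41% of all genes had every *OVT73* below every control library. *AQP4* had a log2 fold change of -0.19 (SE 0.177) in astrocyte-like nuclei. Over the 9 classes 0 of 158 tests of the other genes had an adjusted p under 0.05 by edgeR or DESeq2, and 1 had an unadjusted p under 0.05 by edgeR.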

How the data were processed

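The authors prepared nuclei from frozen striatum, made 10x Genomics 3' libraries and deposited 1 matrix of UMI counts per library. Per the submitters' processing notes and the study's methods, the counts were made with Cell Ranger 7.0.0 and STAR 2.7.2a on the Oar_rambouillet_v1.0 sheep genome with a human *HTT* sequence added.

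Here barcodes with 200 to 7500 genes and at most 5% mitochondrial UMIs were kept (33957 of 35272), and in each library the 4% with the highest Scrublet doublet scores were removed (1358), because its automatic threshold marked 129. Nuclei were clustered with scanpy 1.11.5 (3000 variable genes without the 5 genes, 30 components, Harmony correction by library, re-implemented, 20 neighbours, Leiden resolution 1) and clusters were named from marker lists. A name needed at least 3 markers raised by over 1 on the log2 scale and no rival list at 0.7 of its score. That rule was set after the marker profiles were seen. The genes, lists and markers were chosen with earlier results of these data known.

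UMI counts were summed per library and class (at least 10 nuclei in every library) and tested with edgeR 4.0.16 (filterByExpr, TMM, robust quasi-likelihood, two-sided) over all genes of a class, with DESeq2 1.42.0 as an alternative. Single values were compared by two-sided exact permutation over libraries (scipy 1.17.1). The study's own test (MAST, a mixed model) was not used. Named are the 5 genes, the 2 highest genes of each list, any list gene that passed the test or did not overlap between genotypes in astrocyte-like nuclei, and the 3 genes most like each member. Some genes that this rule names are not reported here. Cluster-leading genes, *MOG*, *PDGFRA* and *GFAP* were named after their values were seen. The steps were tested on simulated data. Of the deposited values, the barcode and gene lists served as labels only.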

Additional observations from a re-analysis of the deposited data

Results flagged for a closer look

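In the 4 control libraries, a library stood apart from the nearest other by most of the group's range in 2 of the 41 comparisons examined, and chance gives about 1 in 20. *SLC1A3* in astrocyte-like nuclei was 2046 TMM-scaled CPM in control library 3 against 2347 in the next lowest control, and *SLC1A1* in D1 MSN-like nuclei was 111 in control library 3 against 128.

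Clusters that took no name, and so entered no class, also held some of these genes. Their pooled levels, over all nuclei of the cluster, were above the mean over libraries of all but the leading class. In the 314 nuclei led by *TOP2A* and other cell division genes, in which both microglia and astrocyte markers were raised, pooled levels were 1549 CPM for *SLC1A2*, 1049 CPM for *SLC1A3*, 328 CPM for *SLC7A11* and 167 CPM for *GLUL*, with 6 to 87 nuclei per library. For *GLUL* the order is not settled, since the mean in macrophage-like nuclei was 166 CPM and the 2 measures differ. Its level in these nuclei was 0 CPM in control libraries 1 and 2, and 73.1 to 219 CPM in the others. At the finer clustering *TOP2A* led a cluster of 168 nuclei that took a lymphocyte name. A separate cluster of 135 nuclei had microglia and astrocyte markers raised, with *SLC7A11* and *SLC1A2* among its leading genes. Whether the UMIs of the 5 genes in the 314 nuclei came from dividing nuclei was not tested. In the 363 nuclei with raised oligodendrocyte and cholinergic markers, *GLUL* was 234 CPM. In the 116 nuclei with raised endothelial, fibroblast and mural markers, *SLC7A11* was 428 CPM. Split by the marker list with most UMIs, 19 fibroblast-marker nuclei from 7 libraries had 38 *SLC7A11* UMIs (1219 CPM, 95% exact Poisson interval 863 to 1674, counting error only). They had 0 *SLC1A2* UMIs, for which 3 UMIs (96.3 CPM) were set as the upper limit in place of the exact interval. The 49 endothelial-marker nuclei had 8 *SLC7A11* UMIs (107.1 CPM, exact interval 46.2 to 211) and the 14 mural-marker nuclei had 2. The 34 nuclei with none of these marker sets leading had 25 *SLC7A11* UMIs, in 4 nuclei. The pooled *SLC7A11* level in the 19 fibroblast-marker nuclei was above its mean in astrocyte-like nuclei (756 CPM). The split was chosen after the data were seen.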

How the results depend on the processing

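The alternatives changed the test, scaling, filter, number of nuclei, doublets, clustering or libraries. Of 350 values, 310 were counted as the same, 31 changed direction and 9 moved. For fold changes and differences, the same means an unchanged direction and side of the threshold. The astrocyte minus oligodendrocyte differences and the ratios at fixed shares could only keep their side, so for them direction alone was examined. For mean levels and thinned shares the same means a move of under 1 SD, and for counts of members called an equal count. The mean levels moved by less than 1 SD with doublets kept or with the 5 genes allowed in the clustering. With no filter on low counts 1 of 45 tests of the members passed in place of 0, *SLC7A11* in eccentric MSN-like nuclei (log2 fold change 2.32, edgeR adjusted p = 0.0341), where 52 of 17893 genes of that class passed, and 11 of 18713 genes passed in astrocyte-like nuclei in place of 0 of 8352. That *SLC7A11* result rested on 59 UMIs in 318 nuclei, at 8.20 to 17.5 CPM in *OVT73* and 1.11 to 4.94 CPM in control libraries. Thinned to 1000 UMIs in place of 500, shares rose with depth: *SLC1A1* to 31.7% in OPC-like and 12.2% in D1 MSN-like nuclei, *SLC1A2* to 70.8%, *SLC1A3* to 80.5%, *SLC7A11* to 41.8% and *GLUL* to 12.9% in astrocyte-like nuclei, *SLC1A3* to 29.1% in microglia-like and *GLUL* to 25.4% in oligodendrocyte-like nuclei.

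In astrocyte-like nuclei *SLC1A2* stayed between 0.30 and 0.51 and *SLC1A3* between 0.18 (without *OVT73* library 2) and 0.38 with each library left out, and in the sum of all nuclei between 0.66 and 1.03 and between 0.56 and 0.78 (lowest edgeR or DESeq2 adjusted p = 0.0663, by DESeq2 for *SLC1A3*). The cause of the changes of direction was not tested. Without TMM, *SLC1A1* went to 0.00 (-0.0021) in astrocyte-like, -0.044 in D1 MSN-like, -0.073 in D2 MSN-like nuclei and -0.016 in the sum. With doublets kept, *SLC1A1* in astrocyte-like nuclei went to -0.10 and *SLC1A2* in OPC-like nuclei to 0.087. *GLUL* in microglia-like nuclei went to 0.049 with no filter and to 0.011 with the genes in the clustering. In sub-cluster C alone *SLC1A2* was -0.0025 and *SLC7A11* -0.38, in sub-cluster B alone *GLUL* was -0.13, and at fixed sub-cluster shares *GLUL* was -0.027, all chosen after seeing the data. With a library left out, *SLC1A1* ranged from -0.25 to 0.39 in astrocyte-like, -0.0039 to 0.079 in D1 MSN-like, -0.021 to 0.060 in D2 MSN-like and -0.043 to 0.24 in OPC-like nuclei, *SLC1A2* from -0.19 to 0.048 in OPC-like nuclei, and *GLUL* from -0.13 to 0.21 in astrocyte-like, -0.29 to 0.048 in oligodendrocyte-like and -0.17 to 0.22 in microglia-like nuclei. The astrocyte minus oligodendrocyte difference ranged from -0.27 to 0.46 for *SLC1A2*, -0.070 to 0.41 for *SLC1A3* and 0.18 to 0.42 for *GLUL*.

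No paired analysis was possible because the labels give no replicate numbers that groups share. Depth limits the low classes most: *GLUL* had 11 to 65 UMIs per library in D1 MSN-like nuclei, and classes under 10 nuclei in a library were not tested. Intervals cover counting error only.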
